A study of Mus musculus with 12 samples.

Results

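Chil3, Lyz1, Lyz2 and Wfdc17 encode secreted proteins of the innate immune system, and their signal was compared between mature and precursor mast cell cultures of the mouse. The 4 genes, of 18193 genes with a probe set of their own on the arrays, were chosen on the difference between mature and precursor cultures measured in these same arrays, as some of those with the most negative differences. That difference is therefore described without a test, and it supports nothing beyond itself. All probe sets annotated with one of the 4 symbols were taken. They numbered 6 of 45137, with 1 set for Chil3, 3 for Lyz1, 1 for Lyz2 and 1 for Wfdc17. A further set that names both Chil3 and its paralogue Chil4 is given apart. Of the 6 sets, 5 passed the filter on dim probe sets and 1 set of Lyz1 did not.

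Cells from the bone marrow of mouse femur and fibula were cultured in RPMI medium with serum and interleukin-3, a cytokine on which mast cells grow. The 3 mature cultures (M2, M4 and M6) were kept for 57 to 110 days and the 3 precursor cultures (M1, M3 and M5) for 14 to 16 days. M6 and M1 came from females and M2, M4, M3 and M5 from males, while strain, genotype and age of the mice are not given in the sources used here. Purity was put at about 80% by cytometry and morphology in both groups, with stromal cells, monocytes and macrophages as the other cells that might be present. Total RNA of each culture was hybridised to a pair of arrays with different probe sets, MOE430A (called chip A) and MOE430B (called chip B).

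The deposited values are intensities per probe set, and all levels below are log2 of that signal. Each chip has a floor at the 30th percentile of its values, to which lower signals were raised. On the log2 scale it was 7.95 for chip A and 8.49 for chip B. Differences are mature minus precursor, and each SD is that of 3 cultures. The median signal of an array was 534 to 692 in mature and 553 to 589 in precursor cultures on chip A, and 872 to 913 in mature and 816 to 867 in precursor cultures on chip B. On chip A the ratio of the 3′ to the 5′ probe set of Actb, a measure of RNA integrity and labelling, was 9.73 to 10.1 in mature and 4.81 to 7.04 in precursor cultures, without overlap. On chip B it was 8.66 to 10.8 in mature and 4.87 to 7.25 in precursor cultures, and the same ratio of Gapdh was 16.8 to 22.05 in mature and 9.44 to 13.7 in precursor cultures. On chip A the ratio of Gapdh overlapped between the groups, at 12.8 to 19.3 in mature and 9.11 to 13.5 in precursor cultures. The part of these ratios in the results was not tested. Mast cell identity was checked with 8 marker genes, among them Kit, Fcer1a and Cpa3. Their mean level lay between 13.97 and 14.51 in mature and between 14.23 and 14.39 in precursor cultures. Single markers differed more, with Tpsab1 at -0.99 and Cma1 at 0.63. Mcpt4 was too dim to be tested, and of the 7 tested markers 0 passed in limma at an adjusted p under 0.05.

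Chil3, also known as Ym1, is a chitinase-like lectin that binds sugars but has no chitinase activity, and in the mouse it is a classical product of macrophages exposed to interleukin-4 or interleukin-13 and of immature neutrophils. Lysozymes cut the peptidoglycan of bacterial cell walls. The mouse has a pair of neighbouring lysozyme genes, of which Lyz2 is the form of macrophages and neutrophils and Lyz1 is best known from Paneth cells of the intestine. Wfdc17 encodes a secreted protein with a WAP domain, the fold of several protease inhibitors, and is known from activated macrophages and microglia.

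The promoters of the 4 genes are shown because all 4 had large differences in 1 direction and because the paralogues Lyz1 and Lyz2, and Chil3 and Chil4, can be compared base by base in them. All 4 genes and Chil4 matched an entry of the RefSeq promoter table (GRCm38.p6), which holds 250 bases before and 50 bases after the annotated start. The windows are chr3:106167515-106167814 on the minus strand for Chil3, chr10:117292819-117293118 on the minus strand for Lyz1, chr10:117282223-117282522 on the minus strand for Lyz2, chr11:83703806-83704105 on the plus strand for Wfdc17 and chr3:106219430-106219729 on the minus strand for Chil4. Each is printed 5′ to 3′, with capitals for a match on either strand to a searched motif. The motifs were GAGGAA (a form of the site bound by PU.1), TTGCNNAA (C/EBP factors), TTCNNNNGAA (STAT6) and TATAAA (the TATA box). None of the capitals overlap each other.
Chil3: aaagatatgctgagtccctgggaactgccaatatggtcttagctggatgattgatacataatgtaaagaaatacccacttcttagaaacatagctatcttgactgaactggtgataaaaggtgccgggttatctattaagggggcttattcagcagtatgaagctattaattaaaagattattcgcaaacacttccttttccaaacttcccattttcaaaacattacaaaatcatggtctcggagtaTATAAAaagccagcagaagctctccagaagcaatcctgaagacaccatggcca
Lyz1: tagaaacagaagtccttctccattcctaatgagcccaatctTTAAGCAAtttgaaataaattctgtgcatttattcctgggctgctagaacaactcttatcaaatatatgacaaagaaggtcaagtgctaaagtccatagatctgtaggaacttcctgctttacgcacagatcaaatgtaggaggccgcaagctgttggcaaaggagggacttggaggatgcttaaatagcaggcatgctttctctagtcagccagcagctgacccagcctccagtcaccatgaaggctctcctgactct
Lyz2: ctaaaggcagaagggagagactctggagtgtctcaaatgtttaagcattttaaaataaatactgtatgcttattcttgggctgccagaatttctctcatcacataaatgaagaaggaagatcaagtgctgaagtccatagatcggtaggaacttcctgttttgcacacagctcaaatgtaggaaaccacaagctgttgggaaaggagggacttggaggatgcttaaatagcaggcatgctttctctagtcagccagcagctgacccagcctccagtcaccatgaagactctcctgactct
Wfdc17: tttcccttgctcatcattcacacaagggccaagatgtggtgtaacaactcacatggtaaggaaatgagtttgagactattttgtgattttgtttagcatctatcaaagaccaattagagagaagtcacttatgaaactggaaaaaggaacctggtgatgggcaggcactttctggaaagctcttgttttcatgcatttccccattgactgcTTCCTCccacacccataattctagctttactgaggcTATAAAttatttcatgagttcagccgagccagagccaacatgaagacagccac
Chil4: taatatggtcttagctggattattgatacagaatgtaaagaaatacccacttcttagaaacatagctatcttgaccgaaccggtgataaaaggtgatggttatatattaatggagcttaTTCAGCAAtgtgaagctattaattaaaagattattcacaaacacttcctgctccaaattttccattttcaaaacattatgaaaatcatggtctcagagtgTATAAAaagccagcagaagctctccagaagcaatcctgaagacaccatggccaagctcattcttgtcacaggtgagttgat

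Between Lyz1 and Lyz2, 249 of 298 aligned bases (83.6%) were identical, with an unbroken shared run of 86 bases from base 201 of the Lyz1 window. Chil3 and Chil4 shared 251 of 271 aligned bases (92.6%), with an unbroken run of 53 bases from base 248 of the Chil3 window. The other 8 pairs had between 61.0% and 66.8% identical bases and no shared run over 10 bases. The letters TATAAA stood in the windows of Chil3, Wfdc17 and Chil4, against 13.6% of all 32851 promoters of the table, and they were searched for after the sequences had been seen. They began at position -3 from the annotated start in Chil3 and Wfdc17, so that they span it, and at -31 in Chil4. A match to TTGCNNAA stood in the windows of Lyz1 and Chil4, against 10.8% of all promoters. GAGGAA stood in that of Wfdc17, against 28.3%, and TTCNNNNGAA in no window shown, against 6.95%. None of the searched motifs was shared by all 4 genes. Other forms of these sites were not searched for, so a window without capitals may still hold a site. A match is only a run of letters, and no binding was measured.

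Chil3 was at the floor in every mature culture and bright in every precursor culture. Its set, 1419764_at on chip A, had signals of 137, 204 and 60.1 in M2, M4 and M6, all under the floor, against 23413, 56623 and 46428 in M1, M3 and M5. On the log2 scale with the floor these were 7.95 in each mature culture, against 14.52, 15.79 and 15.50 in the precursor cultures. The groups did not overlap, and the lowest precursor culture, M1, lay 6.57 above the floor, or at least 94.8-fold above every mature culture. The mean was 7.95 in mature and 15.27 ± 0.67 in precursor cultures (SD, n = 3 each), a difference of -7.32. Since all mature cultures lay at the floor, the level in them was at least 160-fold lower. Among the 22626 probe sets of its array, the set ranked between 16225 and 20836 by brightness in mature cultures and between 128 and 356 in precursor cultures. In such bulk samples, fewer cells of a type that makes Chil3 and less Chil3 RNA per cell cannot be told apart.

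The set shared by Chil3 and Chil4, 1425451_s_at on chip A, had a smaller difference. Its level was 8.56, 8.75 and 9.12 in M2, M4 and M6, against 12.14, 13.39 and 13.39 in M1, M3 and M5. The mean was 8.81 ± 0.29 in mature and 12.97 ± 0.72 in precursor cultures (SD, n = 3 each), a difference of -4.16, or 17.9-fold lower. Unlike the Chil3 set, it stayed above the floor in every mature culture, and its groups did not overlap either. The set of Chil4 alone, a second chitinase-like lectin of the same gene cluster, was too dim to be tested. Its signal was 44.3, 233 and 539 in M2, M4 and M6, against 539, 461 and 582 in M1, M3 and M5, so that M6 and M1 had nearly the same signal.

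Of the 3 sets of Lyz1, both _x_at sets had far lower levels in mature cultures, and these levels also spread more widely there. Set 1436996_x_at on chip A, the brightest of the gene, had 10.94, 13.15 and 10.06 in M2, M4 and M6, against 16.42, 16.47 and 16.62 in M1, M3 and M5. M4 was the highest mature culture and M6 the lowest, with an 8.53-fold range of signal among the mature cultures, against a 1.15-fold range among the precursor cultures. The mean was 11.39 ± 1.59 in mature and 16.50 ± 0.10 in precursor cultures (SD, n = 3 each), a difference of -5.12, or 34.7-fold lower. The gap between M4 and the lowest precursor culture was 9.60-fold.

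The narrow range of this Lyz1 set in precursor cultures stood near the top of the array, where the set ranked 34 to 52 of 22626 by brightness. Its signal there was 87406 to 100421, while the brightest set of the same 3 arrays reached 236088 to 256859. Whether the response of the probes flattened at this level was not tested. In mature cultures the same set ranked between 1091 and 8269.

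The second _x_at set of Lyz1, 1439426_x_at on chip A, kept the same order of mature cultures at a lower level. It had 9.07, 10.54 and 8.07 in M2, M4 and M6, against 14.04, 14.28 and 13.45 in M1, M3 and M5. The mean was 9.23 ± 1.24 in mature and 13.92 ± 0.42 in precursor cultures (SD, n = 3 each), a difference of -4.70, or 26.0-fold lower. M4 was again highest and M6 lowest among the mature cultures. In precursor cultures M5 was the lowest in this set and the highest in 1436996_x_at, so the sets differed in the order of the precursor cultures.

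The third set of Lyz1, 1450822_at on chip A, did not show this difference. Its signal was 150, 290 and 539 in M2, M4 and M6, against 534, 535 and 525 in M1, M3 and M5, so M6 lay above all precursor cultures. On the log2 scale the mean was 8.40 ± 0.59 in mature and 9.05 ± 0.015 in precursor cultures (SD, n = 3 each), a difference of -0.65 with overlapping groups. With a floor at the chip's 50th percentile this was 0, since all cultures then lay at the floor. An _x_at set holds probes that also match other sequences. The probe sequences were not used here, and how far these sets read Lyz2 was not tested.

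Lyz2 was lower in all mature cultures too, by a smaller factor and with another order of cultures. Set 1423547_at on chip A had signals of 772, 883 and 1462 in M2, M4 and M6, against 7646, 11682 and 24642 in M1, M3 and M5. These correspond to levels of 9.59, 9.79 and 10.51 in the mature cultures, against 12.90, 13.51 and 14.59 in the precursor cultures. No mature culture was at the floor, and the lowest precursor culture, M1, was 5.23-fold above the highest mature culture, M6. The mean was 9.96 ± 0.49 in mature and 13.67 ± 0.85 in precursor cultures (SD, n = 3 each), a difference of -3.70, or 13.02-fold lower.

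The lysozyme sets thus differed in which cultures were high. M6 had the highest Lyz2 signal and the lowest signal of both bright Lyz1 sets among the mature cultures. In the precursor cultures Lyz2 spanned a 3.22-fold range with its highest value in M5, while 1436996_x_at spanned 1.15-fold. After each set was centred on its own mean, the root mean square difference over the 6 cultures was 0.43 between both bright Lyz1 sets. It was 1.38 between Lyz2 and 1436996_x_at, and 1.27 between Lyz2 and 1439426_x_at. These are distances between log2 profiles of 6 cultures, given without a test.

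Wfdc17 was at or near the floor in mature cultures and bright in precursor cultures. Its set, 1436530_at on chip B, had signals of 341, 434 and 323 in M2, M4 and M6, against 10364, 21267 and 12346 in M1, M3 and M5. On the log2 scale the levels were 8.49, 8.76 and 8.49 in mature cultures, with M2 and M6 at the floor, against 13.34, 14.38 and 13.59 in precursor cultures. The groups were 23.9-fold apart at their closest, between M4 and M1. The mean was 8.58 ± 0.16 in mature and 13.77 ± 0.54 in precursor cultures (SD, n = 3 each), a difference of -5.19. With M2 and M6 at the floor this difference depends on it, and a floor at the chip's 50th percentile made it -4.01. By brightness it ranked 15062 to 16378 of 22511 sets in mature cultures and 193 to 670 in precursor cultures. M3 was the highest culture for Wfdc17 as it was for Chil3.

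**Figure D1:**
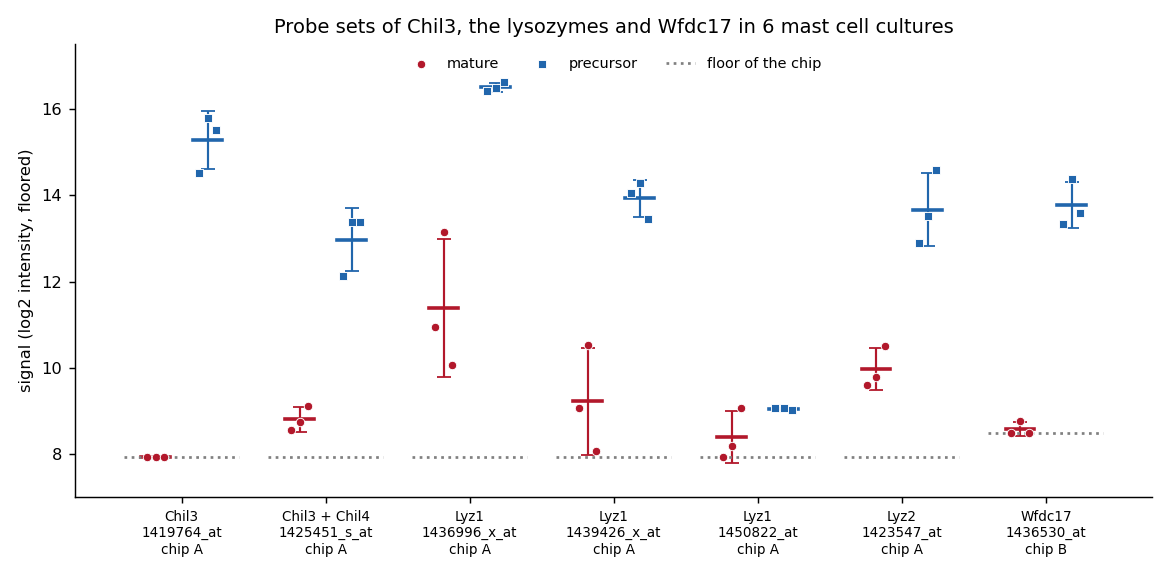
Log2 signal (vertical axis) of every probe set of Chil3, Lyz1, Lyz2 and Wfdc17, with the set shared by Chil3 and Chil4, in mature cultures (red circles) and precursor cultures (blue squares); thick bars are means, error bars are SDs (n = 3 each) and dotted lines mark the floor of the chip. The groups lie apart in every set but 1450822_at of Lyz1, and the Lyz1 _x_at sets spread most widely in mature cultures.

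The groups did not overlap in 5 of the 6 sets. The share of all probe sets without overlap was not taken, so nothing is read from this count. In the limma fit over all probe sets, 0.441% of tested sets on chip A were lower and 0.0864% higher in mature cultures at an adjusted p under 0.05. On chip B, 0.0673% were lower and 0.0253% higher. As the 4 genes were chosen on this contrast, they are not set against these shares. By size of the negative difference on chip A, Chil3 stood first, 1436996_x_at of Lyz1 at place 2, 1439426_x_at at place 4, the shared Chil3 and Chil4 set at place 8 and Lyz2 at place 14. The other genes nearest in this order were Ctsg at place 3 with a difference of -4.99, Ctss at place 5 with -4.68, H2-Aa at place 6 with -4.52, Tgfbi at place 7 with -4.28 and Ngp at place 9 with -3.86. On chip B, Wfdc17 stood first, ahead of H2-Aa with -4.32, Hk3 with -4.23, Clec4a3 with -3.73, Cybb with -3.68 and Ctsh with -3.23. Over all tested sets the median difference was 0.018 on chip A and 0.004 on chip B.

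The spread of the genes among replicates can be set against that of all tested sets. Over the chip A sets the median range among 3 cultures was 0.65 in mature and 0.60 in precursor cultures. The range of 1436996_x_at was 3.09 in mature and 0.20 in precursor cultures, and that of Lyz2 was 0.92 in mature and 1.69 in precursor cultures. Chil3 ranged over 1.27 in precursor cultures, and Wfdc17 over 1.04, where the chip B median was 0.73.

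The instrument records and control spots gave ways to divide the cultures, and the differences were also taken within each. By fluidics station, M2 minus M1 was -6.57 for Chil3, -5.47 for 1436996_x_at of Lyz1, -3.31 for Lyz2 and -4.85 for Wfdc17. On the other station, which held M4, M6, M3 and M5, the differences were -7.70 for Chil3, -4.94 for this Lyz1 set, -3.90 for Lyz2 and -5.36 for Wfdc17. As the groups of these sets did not overlap, the negative sign was fixed for this and every other division, and nothing is read from it. Between the female cultures, M6 minus M1, Lyz2 differed by -2.39 and 1436996_x_at by -6.36, while between the means of the male cultures Lyz2 differed by -4.36 and 1436996_x_at by -4.50. With 1 female culture a group, a difference between the sexes was not tested. The added poly-A control RNA was low relative to the hybridisation control in M4, M6 and M1 and high in M2, M3 and M5, a division found after the data were seen. Within the low class Chil3 differed by -6.57, 1436996_x_at by -4.81, Lyz2 by -2.75 and Wfdc17 by -4.71. Within the high class Chil3 differed by -7.70, 1436996_x_at by -5.60, Lyz2 by -4.46 and Wfdc17 by -5.50.

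Other genes of the same families and functions were taken from 6 lists of 86 genes, of which 72 were on the chips and 37 passed the filter. In limma 3 of these 37 fell in mature cultures at an adjusted p under 0.05 and 0 rose, while an unadjusted p under 0.05 was reached by 12 lower and 1 higher gene. The median difference of the 37 was -0.50. The lists were drawn up with earlier results of these arrays known, so they are no independent evidence of a direction.

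Among chitinases and chitinase-like proteins, 2 of 9 genes could be tested and 0 passed in limma, also at an unadjusted p under 0.05. Chid1, a chitinase-domain protein, differed by -0.11 and Ovgp1, an oviduct glycoprotein of this family, by 0.34. The remaining 5 on the chips were too dim. One of them, Chil1, the chitinase-like protein also called YKL-40 in humans, had signals of 86.5, 96.4 and 579 in M2, M4 and M6, against 545, 38.7 and 1292 in M1, M3 and M5. Among lysozyme-like proteins, which include sperm and goose-type forms, 2 of 8 could be tested and 0 passed in limma, also at an unadjusted p under 0.05. The sperm protein gene Spaca3 differed by -0.29 and Lyg2 by -0.09.

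Of 20 genes for WAP-domain proteins, 6 were tested and 1 passed. Slpi, the secretory leukocyte protease inhibitor that blocks neutrophil elastase and cathepsin G, had levels of 11.39, 13.17 and 10.48 in M2, M4 and M6, against 15.04, 14.99 and 14.77 in M1, M3 and M5. Its mean was 11.68 ± 1.37 in mature and 14.93 ± 0.15 in precursor cultures (SD, n = 3 each). It fell by 3.25 on the log2 scale (SE 0.53, limma adjusted p = 0.0220), and the adjusted p ranged from 0.00102 to 0.559 over the other settings. The call was lost when M2, M1, M3 or M5 was left out, with adjusted p between 0.0758 and 0.0960. Like both bright Lyz1 sets, Slpi was highest in M4 and lowest in M6 among mature cultures. In precursor cultures it was nearly level, as was 1436996_x_at, while 1439426_x_at ranged over 0.82. Wfdc3, another WAP-domain gene, differed by 0.34. Wfdc21, which lies near Wfdc17, was too dim to be tested, with a difference of -2.68 that rests on M1 and M5.

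Among genes of alternative activation and the interleukin-4 response, the setting in which Chil3 is best known, 8 of 17 were tested and 0 passed in limma, with 2 lower at an unadjusted p under 0.05. The list's median difference was -0.40. Tgm2, a transglutaminase, was at 16.09, 14.24 and 15.95 in M2, M4 and M6, against 14.63, 15.48 and 14.52 in M1, M3 and M5, with overlapping groups. Il4ra, the receptor chain that binds interleukin-4, differed by -0.16. The mannose receptor gene Mrc1 differed by -1.35 (limma adjusted p = 0.385), and it was singled out after its value was seen.

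Antimicrobial genes of phagocytes had the lowest median difference of the 6 lists, -2.30 over 11 tested of 20. Of the 11, 2 fell, against 0.441% of all tested sets on chip A, where both lie. Ctsg, the serine protease cathepsin G of neutrophil and mast cell granules, was at 7.95, 9.81 and 10.45 in M2, M4 and M6, against 13.60, 14.54 and 15.05 in M1, M3 and M5. It fell by 4.99 (SE 0.57, limma adjusted p = 0.00464), with an adjusted p of 0.000122 to 0.332 over the other settings. Mpeg1, a pore-forming antibacterial protein of macrophages, was at the floor in all mature cultures, against 10.63, 10.69 and 12.55 in M1, M3 and M5. Its level was at least 10.1-fold lower in mature cultures (limma adjusted p = 0.0134, with 0.00675 to 0.396 over the other settings). It passed the filter on dim sets through the precursor cultures alone, and its test rests on the floor. With a floor at the chip's 50th percentile Mpeg1 differed by -2.10 and the call was lost (limma adjusted p = 0.0917), as it was without M5 (0.0621). Leaving out M3, by contrast, raised the count of passing genes over the lists to 5, with Ltf, Mpo and Ngp added and Slpi lost, and leaving out M5 reduced it to Ctsg alone.

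Of 12 transcription factors of myeloid cells, 8 were tested and 0 passed in limma, while 1 lower and 1 higher gene had an unadjusted p under 0.05. Spi1, which encodes PU.1, was at 10.91, 10.61 and 10.97 in M2, M4 and M6, against 11.09, 11.24 and 11.46 in M1, M3 and M5, and differed by -0.43 (limma adjusted p = 0.808). Runx1, a factor of blood cell development, differed by 0.36.

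**Figure D2:**
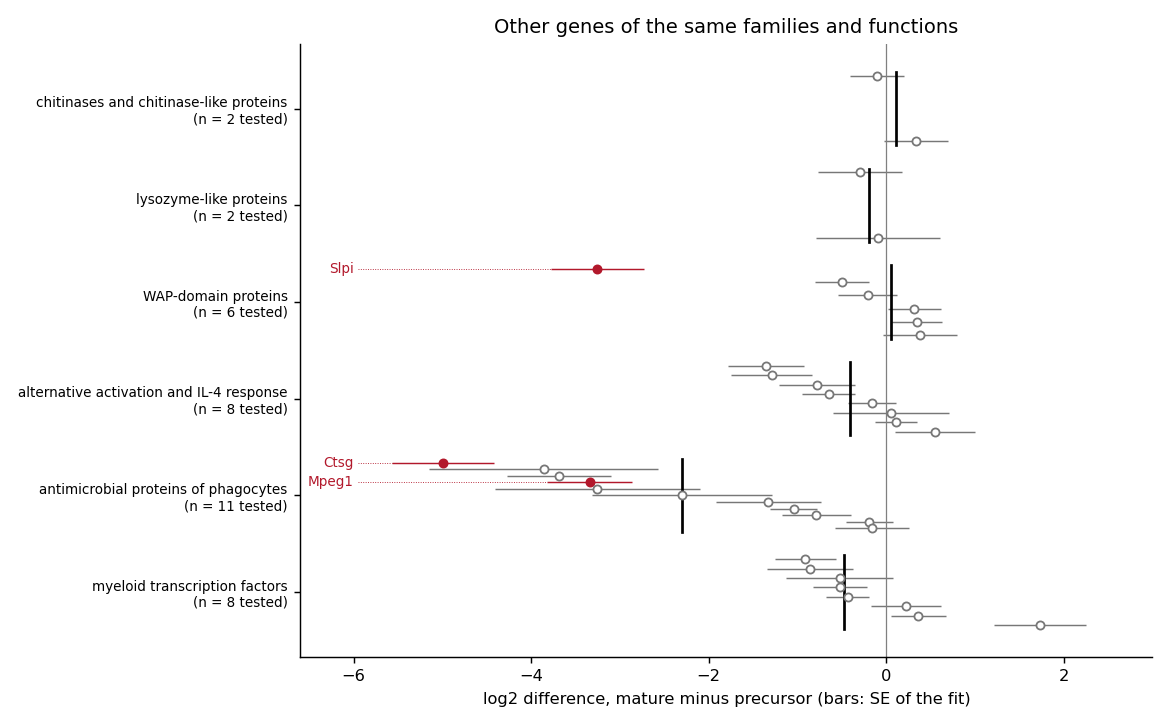
Log2 difference, mature minus precursor (horizontal axis), of the tested genes of 6 lists, with SE of the limma fit as bars and the median of each list as a vertical black line; filled red points passed at an adjusted p under 0.05. Slpi, Ctsg and Mpeg1 passed, all with negative differences, and the antimicrobial list has the lowest median.

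Of the other cell types, only the monocyte and macrophage list and the dendritic cell list had mean levels without overlap between the groups. The mean level of 15 monocyte and macrophage markers was 9.52 to 9.70 in mature and 10.30 to 11.17 in precursor cultures, and 9 of the 15 were lower in every mature culture. The share of all probe sets that were lower in every mature culture was not taken, so nothing is read from such counts, here or below. In limma 5 of the 12 tested fell, namely Csf1r, Adgre1, Cd68, Mpeg1 and Clec7a, with differences between -3.34 and -1.68. Over all tested sets of chip A, where these 5 lie, 0.441% fell. Cd68 and Mpeg1 passed the filter on dim sets through the precursor cultures alone. F13a1, a coagulation factor subunit made by monocytes, went the other way without overlap, at 15.32, 14.28 and 13.40 in M2, M4 and M6, against 13.27, 11.82 and 11.89 in M1, M3 and M5. Its difference of 2.00 did not pass (limma adjusted p = 0.159). Mpeg1, Itgam and Marco were at the floor in all mature cultures, and Marco in all precursor cultures too. Of 7 dendritic cell markers, mostly MHC class II genes, the mean was 9.34 to 9.71 in mature and 10.39 to 11.08 in precursor cultures. Lower in every mature culture were 4, namely H2-Aa, H2-Ab1, H2-Eb1 and Cd74, and in limma H2-Aa and H2-Eb1 of these fell. Itgax differed by -0.15 and Flt3 by -0.06, both with overlapping groups, and Ciita was too dim to be tested. The part of such cells in the levels of Chil3, the lysozymes and Wfdc17 was not tested.

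Neutrophil markers had another pattern across the precursor cultures. The mean of 12 such markers was 8.48 to 9.06 in mature cultures, against 12.02 in M1, 8.61 in M3 and 12.98 in M5. M3 thus lay within the mature range, and S100a8, S100a9, Camp and Prtn3 were at the floor in it. In the same culture Chil3 was at 15.79 and Wfdc17 at 14.38, the highest level of each. Lyz1 was at 16.47 there, against 16.42 in M1 and 16.62 in M5, so it was nearly level. Lyz2 was at 13.51 in M3, between M1 and M5. The part of neutrophils in the levels of these genes was not tested. Eosinophil markers had a like pattern, at 8.00 to 8.25 in mature cultures, against 9.27 in M1, 8.09 in M3 and 10.13 in M5. The 8 stromal markers averaged 9.71 to 10.19 in mature and 9.92 to 10.24 in precursor cultures, with 2 of them lower in every mature culture. Of these, Igfbp4, an insulin-like growth factor binding protein, fell by 2.09 (limma adjusted p = 0.0211), and fibronectin (Fn1) differed by -1.30 and did not pass (limma adjusted p = 0.135). The lymphocyte markers averaged 8.08 to 8.87 in mature and 8.17 to 8.45 in precursor cultures.

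**Figure D3:**
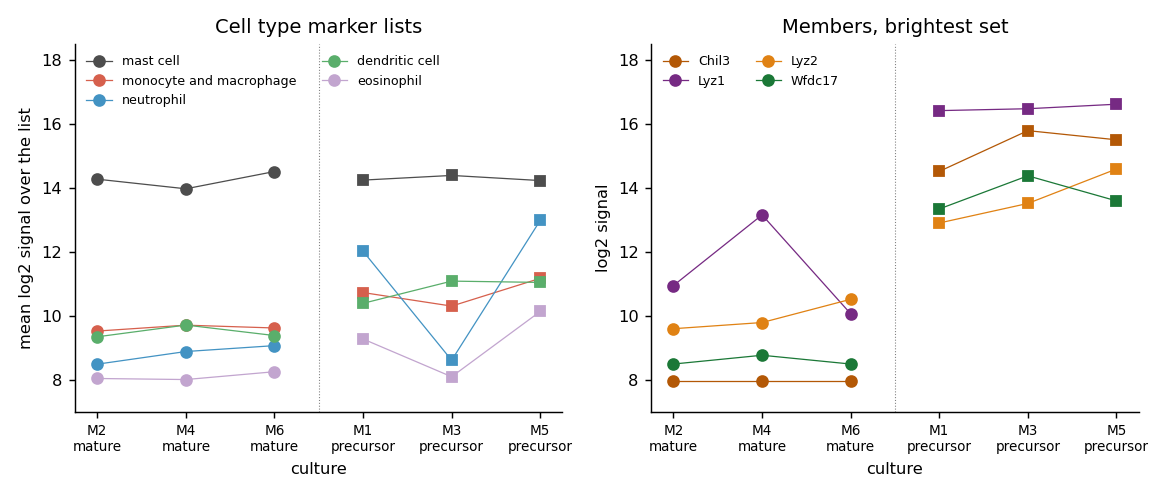
Left, mean log2 signal of cell type marker lists by culture, and right, log2 signal of the brightest set of Chil3, Lyz1, Lyz2 and Wfdc17, with mature cultures as circles and precursor cultures as squares; lines only join the values of 1 list or set. M3 has a neutrophil mean of 8.61, within the mature range, and the highest Chil3 and Wfdc17 levels. The part of any cell type in these levels was not tested.

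The sets most like each gene were found by the root mean square difference of centred log2 levels over the 6 cultures, among the tested sets of the same chip that carry 1 symbol of another gene. Sets of the 4 genes themselves were left out of this order and are given beside it. The levels were not scaled, so the difference on which the genes were chosen enters the distance. Nearness to other sets with large falls is therefore only a description. For Chil3 the nearest were Ctsg (1.40), H2-Aa (1.55), Ctss (1.62), App (1.88) and Tgfbi (1.97). The bright Lyz1 sets lay at 1.48 and 1.56 from Chil3, the set shared with Chil4 at 1.59 and Lyz2 at 1.87. For 1436996_x_at of Lyz1 they were H2-Aa (0.76), Ctss (0.84), Slpi (0.95), Ctsl (1.18) and App (1.19), while 1439426_x_at lay at 0.43 and the shared set of Chil3 and Chil4 at 1.17. For Lyz2 they were Mpeg1 (0.41), Anxa3 (0.52), Ctsh (0.53), App (0.55) and Fabp5 (0.56), and the shared set of Chil3 and Chil4 was as near, at 0.41. For Wfdc17 on chip B they were H2-Aa (0.68), Hk3 (0.79), Clec4a3 (1.11), Cybb (1.25) and Entpd1 (1.27). The 5 genes named for Lyz1 and the 5 named for Lyz2 had App alone in common. App, Mpeg1, Clec4a3 and Entpd1 were at the floor in all mature cultures and passed the filter through the precursor cultures alone. Tgfbi, Ctsl, Anxa3, Ctsh, Hk3 and Cybb also passed it through the precursor cultures alone, with no mature culture above the filter signal. The same was true of Chil3, of Wfdc17 and of the set shared by Chil3 and Chil4.

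Levels of the nearest sets show where the profiles part. Ctss, the protease cathepsin S, was at 7.95, 11.11 and 9.20 in M2, M4 and M6, against 13.18, 15.06 and 14.08 in M1, M3 and M5, so M4 was the highest mature culture for it as for Lyz1. H2-Aa, an MHC class II chain, was on chip A at 8.17, 9.86 and 7.95 in M2, M4 and M6, against 11.92, 14.05 and 13.57 in M1, M3 and M5. Anxa3, an annexin, was at 8.01, 9.12 and 8.74 in the mature cultures, against 11.06, 11.16 and 12.64 in the precursor cultures. M5 was the highest culture for Anxa3, Mpeg1 and Lyz2.

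**Figure D4:**
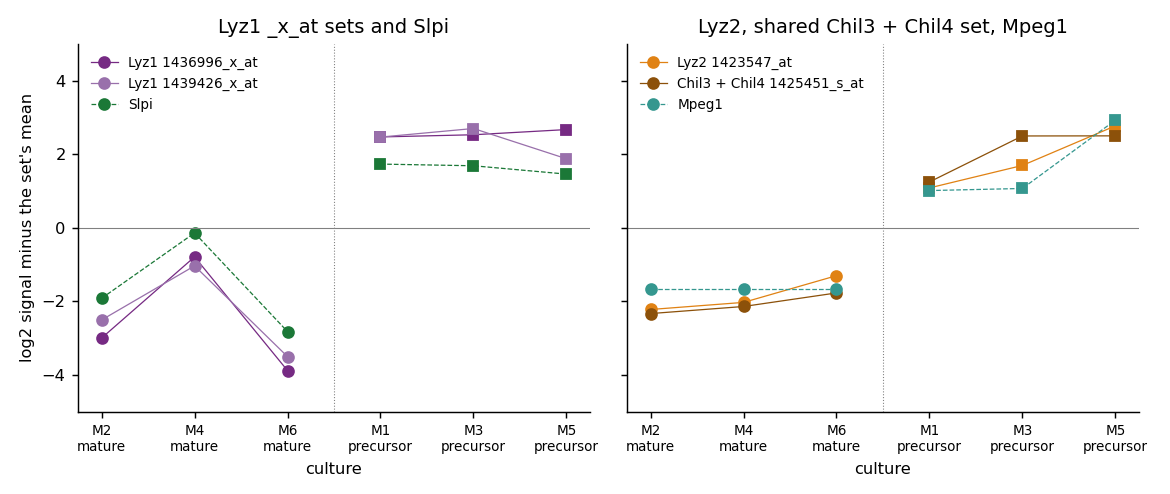
Log2 signal minus the mean of the set over 6 cultures (vertical axis) for the bright Lyz1 sets with Slpi (left) and for Lyz2 with the shared Chil3 and Chil4 set and Mpeg1 (right), with mature cultures as circles and precursor cultures as squares; lines only join the values of 1 set. Lyz1 and Slpi peak in M4 among mature cultures, and Lyz2 and Mpeg1 are highest in M5.

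The 3 genes on either side of each of the 4 genes were taken from the reference annotation (GRCm38.p6). The 4 genes themselves were not counted as neighbours. Lyz1 and Lyz2 are next to each other on chromosome 10, Chil3 lies next to Chil4 on chromosome 3, and Wfdc17 lies between Ccl4 and Wfdc18 on chromosome 11. Of the 18 other neighbours, 10 were tested, 5 were too dim and 3 were not on the chips. In limma 0 of the 10 passed in either direction, and 2 did at an unadjusted p under 0.05. The 2 neighbours lie near Wfdc17 and encode chemokines. Ccl6 averaged 12.92 in mature and 15.73 in precursor cultures, a difference of -2.81 (SE 0.70, limma adjusted p = 0.167). Without M6 the difference of Ccl6 was -1.73 and passed, at an adjusted p of 0.0353. Ccl3 averaged 9.97 in mature and 11.51 in precursor cultures, a difference of -1.54 (limma adjusted p = 0.742).

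Wfdc18, which adjoins Wfdc17, averaged 9.99 in mature and 9.68 in precursor cultures, a difference of 0.32. Ccl4 on its other side differed by 0.36, and Heatr6 by 0.25. Around the lysozymes, Yeats4 differed by -0.23, Cpsf6 by -0.25 and Mdm2 by 0.34, and around Chil3, Pifo differed by 0.75 and Dennd2d by -0.26. None of these differences was past the threshold.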

How the data were processed

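RNA of 6 cultures was read on 12 arrays. Per the submitters' processing notes the deposited intensity values were made by the authors with MAS5, whose version is not given in the sources used here. From the values, each array had been scaled to a like mean without its top and bottom 2%. The deposited instrument records (unit: other) gave station and scan day only, and lot and scan day did not vary within a chip. No detection calls were used. Each array gave 1 value per probe set and culture, and nothing says more of the cultures than that they were separate, so p-values measure the spread between them.

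The chips were handled apart. Signals under the 30th percentile, which was 247 for chip A and 359 for chip B, were raised to it before log2 was taken. Sets with at least 3 of 6 arrays above the table's median (582 and 864) were tested. They were 11576 of the 22626 sets of chip A and 11880 of the 22511 sets of chip B, without control sets. The test was that of limma 3.58.1 under R 4.3.3 (lmFit, eBayes with an intensity trend, no covariate), two-sided, with Benjamini-Hochberg adjustment within a chip and a threshold of 0.05. An exact permutation test of 3 against 3 cannot give a p under 0.1 and was not used. The fit was tested on simulated data.

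Members and lists were chosen with earlier results of these data known. A listed gene was read by its brightest tested set on chip A, else on chip B. Named were all member sets, up to 3 passing genes a list and direction or the 2 brightest tested, Chil4, Slpi and Chil1, 3 neighbours on each side, the 5 most similar sets per gene and the 5 largest falls a chip that are no members. Alternatives were other scalings, floors and filters, sex, station or spike control class as a block, no trend, array weights and each culture left out. Promoters came from RefSeq and were aligned with Biopython 1.88. Protein and probe sequences were not used here.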

Additional observations from a re-analysis of the deposited data

How the results depend on the processing

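The differences of the 4 genes were recomputed under other scalings, other floors and with each culture left out. As the genes were chosen for large differences between groups that do not overlap, a kept sign is no sign of stability. Values at the floor moved with it. Chil3 differed by -8.37 with no floor and by -6.08 with the floor at the 50th percentile, and Wfdc17 by -4.01 with that floor. The mean over the sets of Lyz1 differed by -3.49.

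The number of changed probe sets was less stable. On chip A it was 61, with 1 under no filter, 39 with spike control class as a block, and 21 to 59 when 1 culture was left out (25 without M2, 21 without M5). On chip B it was 11, with 4 under no floor, 17 with the floor at the 50th percentile, 0 under no filter (limma), 6 where the mean signal had to exceed the 60th percentile, 17 with a block for sex, 6 with spike control class as a block, 3 with no intensity trend, 7 with array weights, and 3 to 11 when 1 culture was left out (5 without M2, 5 without M4, 3 without M6, 6 without M5). On each chip 763 sets had an unadjusted p under 0.05. Of the listed genes 3 were lower, with 0 under no filter and 1 to 5 when 1 culture was left out (5 without M3, 1 without M5), and 0 were higher under every alternative. The cause of these shifts was not tested.

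No paired analysis was possible because the culture numbers differ between the groups. The number of arrays limits all values, and dim sets carry no detection call.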
